A study of Mus musculus with 24 samples.

Results

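Anti-miR-22 was compared with a mock oligonucleotide in uninjured kidney, across all genes that the arrays name. The group means compared come from 10 of the series' 24 arrays: the 5 titled sham with anti-miR-22 and the 5 titled sham with mock, chosen by these titles and by no measured value. The mice were males of the inbred strain C57BL/6N at an age of 10 weeks. Both oligonucleotides were given under the skin at 20 mg/kg. Sham animals went through every step 24 h later except the glycerol injection: anaesthesia, 23 h without drinking water (19 h before the step and 4 h after it) and 2 doses of the analgesic carprofen at 5 mg/kg, the second 3 h after the first. Halved kidneys were frozen 24 h after that step, so the tissue had been exposed to an oligonucleotide, a period of thirst and carprofen in the control group too. The other 14 arrays, 7 for each oligonucleotide, came from animals whose leg muscle was injected with 50% glycerol, which causes rhabdomyolysis and acute kidney injury. They serve here as the injured counterpart, and they also enter the estimate of spread per probe behind every sham test. Their labels do not say whether a mild or a severe glycerol dose was used. All arrays used here come from mice given an oligonucleotide, so the effects of anti-miR-22 and of the mock cannot be told apart. Whether each array is a different animal is not stated, so a p-value here reflects only how much these arrays vary, and some of that may be technical.

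A microRNA is a short RNA that guides an Argonaute protein to messenger RNAs. Its seed, the stretch of bases near its 5′ end, pairs with sites in these messages, which are then less translated or degraded. An antisense oligonucleotide that pairs with a microRNA keeps it from its messages. miR-22 is expressed in many tissues, kidney among them, and is best known from heart and muscle, where nuclear receptor and metabolic genes are among its reported targets.

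The oligonucleotides and the microRNA are shown because the comparison turns on how they differ. The miR-22-3p sequence is RefSeq's, from GRCm38.p6 chr11:75463772-75463793 on the plus strand, with its seed (bases 2 to 8) in capitals. In anti-miR-22 the capitals mark the bases that lie opposite the seed, and in the mock they mark the 4 bases that differ from anti-miR-22. All are written 5′ to 3′.
miR-22-3p: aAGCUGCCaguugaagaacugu
anti-miR-22: cttcaactGGCAGCT
mock: ctAcTacAggcTgct

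Both oligonucleotides have 15 bases. Anti-miR-22 pairs with bases 2 to 16 of miR-22-3p without a gap. The changes from anti-miR-22 to the mock are T3A, A5T, T8A and A12T, numbered from the 5′ end with its first base as 1 and naming the anti-miR-22 letter before the mock's. These changes lie opposite bases 14, 12, 9 and 5 of the microRNA, so that 11 bases of the mock can pair, in runs of at most 3, and 1 seed base is left unpaired. Among 1738 mature mouse microRNAs of RefSeq, 1 carries the seed of miR-22-3p, which is miR-22-3p itself. The full seeds of 2 microRNAs are complementary to a stretch of anti-miR-22, and the second of them, shown for its shifted seed, is miR-3966.
miR-3966: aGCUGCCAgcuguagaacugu
None of the 1738 seeds is complementary to a stretch of the mock.

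The arrays hold 1 deposited log2 value per probe set, and 22205 were tested, of which 19505 represent distinct named genes. Medians of the 10 sham arrays lay between 5.807 and 5.857, and any pair of them correlated at 0.9849 to 0.9924. A principal component analysis of the sham arrays put the oligonucleotides apart on its first axis (26.3% of the variance), with mock arrays from -31.9 to -20.71 and anti-miR-22 arrays from 22.64 to 27.92. Kidney markers were present: the 20 measured proximal tubule genes averaged 16.7 to 16.9 on the mock arrays and 16.6 to 16.8 on the anti-miR-22 arrays, while the 7 adrenal gland genes averaged 3.505 to 3.76 and 3.55 to 3.72. Arrays have no sequencing depth, and precision depends on how many there are and on how much they vary for a probe. The median over genes of the SD within a group was 0.257 for mock and 0.249 for anti-miR-22.

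Sham mock 1 and sham mock 3 stood apart from the other sham arrays. Havcr1, which encodes the injury molecule KIM-1 of damaged proximal tubule, read 14.59 on sham mock 1 and 7.00 to 7.74 on the other mock arrays. Lcn2, the gene of the injury marker NGAL, read 13.70 there and 7.75 to 8.91 on the others. The mean of the 22 measured tubular injury genes was 9.42 on sham mock 1, 7.85 to 7.98 on the other mock arrays and 7.91 to 8.15 with anti-miR-22. Fgg, a fibrinogen chain gene (10.31 against 6.88 to 9.10), Krt20, an epithelial keratin gene (6.62 against 2.97 to 4.06), and Plaur, the urokinase receptor gene (7.31 against 4.86 to 5.73), were high on the same array. Its lowest values relative to the other mock arrays were those of Cyp4a14, a fatty acid hydroxylase gene (8.85 against 9.66 to 16.73), and of the transcriptional repressor gene Bcl6 (8.19 against 10.04 to 10.28). Counted over all named genes, sham mock 1 lay more than 2 log2 units from the median of the other mock arrays in 10 genes.

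Sham mock 3 stood apart in more genes, 72 by the same measure, 67 of them above the other arrays. Cyp4a14 read 16.73 there, against 8.85 to 12.00 on the other mock arrays. Next came genes of dividing cells: Rrm2, a subunit of ribonucleotide reductase (11.73 against 7.43 to 8.30), Ube2c, a ubiquitin-conjugating enzyme of mitosis (10.11 against 5.91 to 7.996), and Cdk1, the mitotic kinase (7.31 against 3.17 to 4.85). The 14 cell cycle genes averaged 9.35 on this array, 6.57 to 7.76 on the other mock arrays and 6.397 to 7.38 with anti-miR-22. On the remaining 8 sham arrays, 0 to 9 genes lay that far out. Results below are therefore given with all arrays and, where it matters, without sham mock 1 or sham mock 3.

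**Figure D1:**
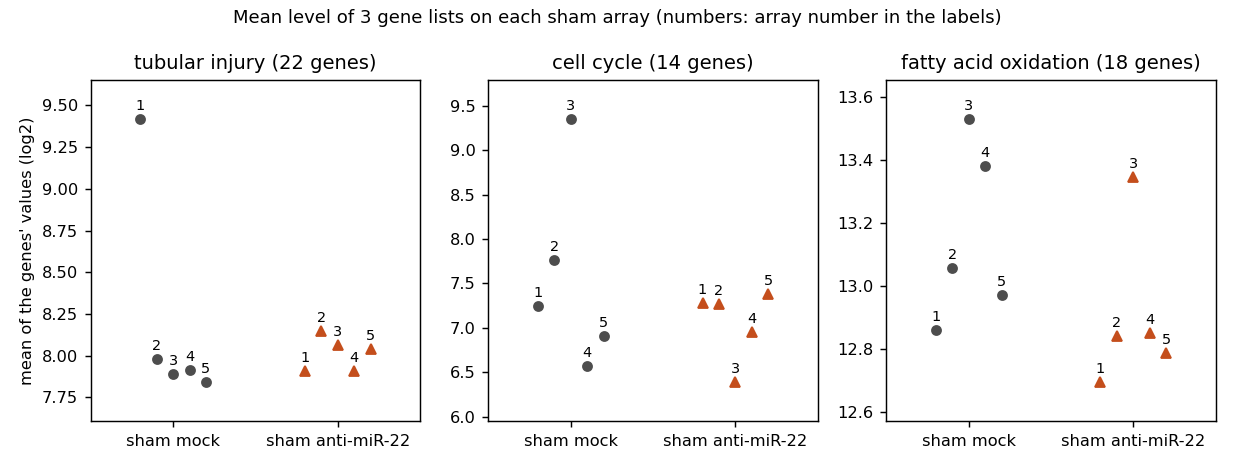
Each point is the mean log2 value of 22 tubular injury genes, 14 cell cycle genes or 18 fatty acid oxidation genes on 1 sham array, with mock arrays as circles and anti-miR-22 arrays as triangles, numbered as in the labels. Sham mock 1 lies at 9.42 in the injury panel and sham mock 3 at 9.35 in the cell cycle panel, each above every other sham array.

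Which genes differ between the oligonucleotides in uninjured kidney was asked with limma over all probes, at a Benjamini-Hochberg adjusted p below 0.05, which is what "called", "rose" and "fell" mean below. Of 22205 probes, 1590 were called (7.16%), 854 higher with anti-miR-22 (3.85%) and 736 lower (3.31%). Counted over the 19505 named genes, 1449 were called (7.43%), 784 higher (4.02%) and 665 lower (3.41%). Most differences were modest: the median size of a called difference was 0.732 on the log2 scale, 185 probes rose and 131 fell by at least 2-fold, and 4 rose and 4 fell by at least 4-fold. The 5 arrays of each group did not overlap for 1253 of the called probes, against 1837 (8.27%) of all probes tested, 959 with the anti-miR-22 arrays above (4.32%) and 878 with them below (3.95%). The median difference over all probes was 0.0028.

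Without sham mock 1, 1414 probes were called (6.37%), 774 higher (3.49%) and 640 lower (2.88%). Of these, 1329 were called in the same direction with it, 261 probes lost their call and 85 gained one, and no probe was called in opposite directions by limma in these fits. Havcr1 averaged 8.78 ± 3.27 (SD, n = 5) with mock and 7.05 ± 0.42 with anti-miR-22, a difference of -1.72 ± 0.79 (SE, adjusted p = 0.23) that came to -0.27 without sham mock 1 (adjusted p = 0.61). For Lcn2 the difference of -0.80 (adjusted p = 0.55) turned to 0.27 without that array. Leaving out sham mock 3 in its place gave 1402 calls (6.31%; 3.47% higher and 2.85% lower), of which 1305 were shared with the full comparison, and the median difference of the 14 cell cycle genes moved from -0.47 to 0.01.

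**Figure D2:**
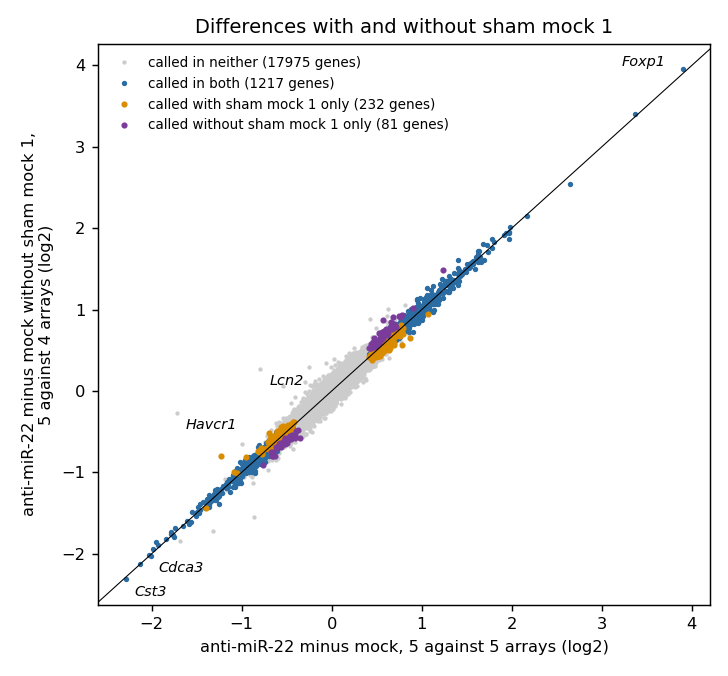
Each point is 1 named gene, with its log2 difference (anti-miR-22 minus mock) over 5 against 5 sham arrays on the x axis and without sham mock 1 on the y axis, and a diagonal of equal values. In both fits 1217 genes were called, 232 only with that array and 81 only without it, and Havcr1 and Lcn2 lie farthest above the diagonal among the labelled genes.

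The largest rises were those of Foxp1, Ppdpf, Med15 and Pum2. Foxp1, which encodes a forkhead transcription factor, read 7.76, 6.82, 7.81, 7.68 and 7.69 on the mock arrays 1 to 5 and 11.37, 11.38, 11.29, 11.67 and 11.54 on the anti-miR-22 arrays. The lowest anti-miR-22 array thus lay far above the highest mock array, and the difference was 3.90 ± 0.21 (SE, n = 5 against 5, limma adjusted p = 2.8e-13), or 14.9-fold. Ppdpf, named for pancreatic progenitor cell differentiation and proliferation, read 8.54, 8.36, 8.47, 8.08 and 8.60 with mock and 11.73 to 11.84 on all 5 anti-miR-22 arrays, a rise of 10.3-fold (3.37 ± 0.21, adjusted p = 1.04e-11). Med15, a subunit of the Mediator complex that links transcription factors to RNA polymerase II, read 7.82, 8.54, 8.62, 8.26 and 8.09 against 10.996, 10.71, 10.98, 10.91 and 10.98 (6.27-fold, 2.65 ± 0.20, adjusted p = 4.64e-10). Pum2, a Pumilio protein that binds messenger RNAs and represses them, read 11.25, 11.22, 11.33, 11.44 and 11.30 against 13.47, 13.66, 13.39, 13.53 and 13.33 (4.48-fold, 2.16 ± 0.14, adjusted p = 1.79e-11). In these 4 genes the groups did not come near each other, and the spread within a group was at most 0.41 (SD).

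The next 11 genes by size rose by 3.30 to 3.95-fold. Among them, Atxn7l1, a relative of the ataxin 7 gene, read 7.33 to 8.16 with mock and 9.06 to 10.38 with anti-miR-22. Fbxo6, a ubiquitin ligase subunit that recognises glycoproteins, read 4.67 to 5.40 against 6.73 to 7.38. Cox20, an assembly factor of cytochrome oxidase, read 12.39 to 12.80 against 14.40 to 14.93. These ranges stayed apart in every case. Leng8 was the least even of the 11, with mock values of 7.65, 9.39, 7.69, 8.19 and 7.41 and anti-miR-22 values of 10.21, 9.55, 10.51, 9.82 and 10.08, so that sham mock 2 came close to the lowest anti-miR-22 array. Lasp1, an actin-binding protein gene, was among the most even, at 14.18 to 14.36 against 15.91 to 16.20 (1.81 ± 0.14, adjusted p = 8.73e-10). Sostdc1, a secreted antagonist of BMP and Wnt signals in the distal nephron, read 9.25 to 9.51 against 10.99 to 11.30 (1.78 ± 0.20, adjusted p = 4.62e-07). The others were Aph1c, a gamma-secretase subunit gene, Elmod3, Med24, Nup54, a nuclear pore protein gene, and Tmem131.

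The largest falls were those of Cst3 and Plpp2. Cst3 encodes cystatin C, the secreted protease inhibitor whose blood level is used to estimate kidney filtration. It read 14.54, 14.76, 14.39, 14.66 and 14.84 with mock and 12.25, 12.70, 12.26, 12.21 and 12.33 with anti-miR-22, a fall of 4.89-fold (-2.29 ± 0.16, adjusted p = 3.82e-11). Plpp2, a lipid phosphate phosphatase gene, read 10.02 to 10.25 with mock and 7.83, 7.93, 7.79, 8.28 and 7.97 with anti-miR-22 (4.38-fold lower, -2.13 ± 0.15, adjusted p = 4.32e-11). Elovl1, the elongase of very long chain fatty acids, read 13.85 to 14.15 against 12.14, 12.59, 11.76, 12.43 and 12.17 (3.44-fold lower, -1.78 ± 0.15, adjusted p = 2.26e-09). In none of these did a mock array overlap an anti-miR-22 array.

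Grn, the gene of the lysosomal and secreted protein progranulin, read 15.04, 14.81, 14.85, 14.69 and 14.60 against 12.99, 13.48, 12.59, 13.16 and 13.03 (3.35-fold lower, -1.75 ± 0.17, adjusted p = 2.65e-08). Ccn2, the connective tissue growth factor gene, read 11.14, 11.08, 10.10, 11.34 and 11.06 against 9.19, 9.01, 8.61, 9.19 and 9.82, with sham mock 3 the nearest mock array. Pcx, pyruvate carboxylase, which feeds gluconeogenesis, read 13.41 to 14.41 against 11.90 to 12.44 (-1.65 ± 0.19, adjusted p = 4.44e-07). Rps25, a protein of the small ribosomal subunit, read 12.88 to 13.12 against 10.65 to 11.17 (-1.98 ± 0.16, adjusted p = 1.06e-09). The groups were apart in each. The other genes among the 15 lowest were Gm15217, Card19, Abracl, Ubl5, Apip, an enzyme of methionine salvage, Tbc1d25, Tsg101, a subunit of the endosomal sorting complex ESCRT-I, and Cdca3.

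Cdca3, a cell cycle gene, was the exception among these 30. Its mock values of 8.75, 9.83, 10.91, 6.16 and 7.98 and its anti-miR-22 values of 7.58, 6.55, 5.41, 7.27 and 6.69 overlapped. Its difference of -2.03 (adjusted p = 0.020) was not called without sham mock 3 (-1.48, adjusted p = 0.093), without sham mock 2 (-1.75, adjusted p = 0.075) or without sham anti-miR-22 array 3 (-1.70, adjusted p = 0.081). The groups did not overlap for the other 29 genes, which all stayed called without sham mock 1 and without sham mock 3.

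**Figure D3:**
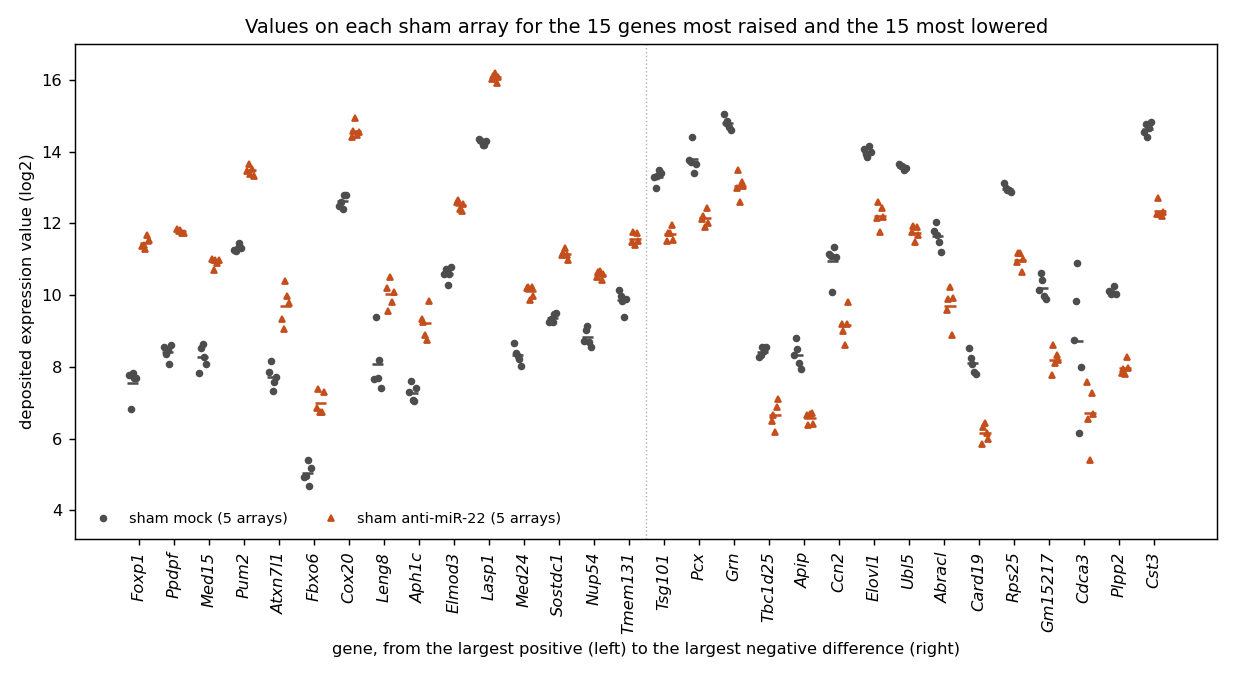
Deposited log2 values on the 5 sham mock arrays (circles) and the 5 sham anti-miR-22 arrays (triangles) for the 15 called genes with the largest positive and the 15 with the largest negative difference, with a line at each group mean. The groups are apart for 29 of the 30 genes, and Cdca3 overlaps.

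Gene groups are described next by counts of called members, beside 4.02% of named genes called higher and 3.41% called lower. The lists were written with earlier results of these data known, so a share above these is no test of the group. Of 673 distinct genes on the lists that were measured, 94 were called, and 88 without sham mock 1. Counts on short lists move by a member or so with the arrays used.

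Forkhead genes of the P and O classes, transcription factors of development, metabolism and stress, were higher where they were called. Of 7 measured, 4 rose, with a list median of 0.61. After Foxp1 came Foxp2, at 3.38 to 3.93 with mock and 4.27 to 5.30 with anti-miR-22 (adjusted p = 0.00062), whose mock mean of 3.72 is too dim for a size to be read. Foxo3 read 6.398 to 6.95 against 7.08 to 8.08 (1.98-fold, 0.99 ± 0.18, adjusted p = 0.0005). Foxo1 was the weakest, at 8.10 to 8.55 against 8.76 to 9.14 (0.61 ± 0.17, adjusted p = 0.02), and was not called without sham mock 1 (adjusted p = 0.062), sham mock 4 (0.060), or anti-miR-22 arrays 2 (0.0503) or 4 (0.064). The differences of the 3 members that were not called, Foxp4 among them, lay between 0.03 and 0.31.

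Of 30 measured Mediator subunits, 5 rose, and the other 25 were not called and lay between -0.66 and 0.62, with a list median of 0.07. Med24 read 8.04 to 8.66 with mock and 9.86 to 10.23 with anti-miR-22 (1.78 ± 0.18, adjusted p = 7.57e-08). Med12, part of the Mediator kinase module, read 9.17, 9.32, 9.37, 9.05 and 8.04 against 10.41 to 10.95 (1.61 ± 0.21, adjusted p = 3.89e-06), with sham mock 5 below the rest of its group. Med28 read 10.11 to 10.47 against 11.17 to 11.51 (1.00 ± 0.15, adjusted p = 2.89e-05). The remaining member, Med22 (0.65), was not called without sham mock 1 (adjusted p = 0.053).

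On a list of 21 chromatin remodellers, lysine methyltransferases and coactivators, 7 rose, and they remained 7 in number without sham mock 1 or sham mock 3. Its median was 0.32. Ncoa6, a nuclear receptor coactivator, read 10.04 to 10.35 with mock and 11.66 to 11.97 with anti-miR-22 (2.93-fold, 1.55 ± 0.19, adjusted p = 1.33e-06). Ncoa1, the steroid receptor coactivator SRC-1, read 7.73 to 8.28 against 9.31 to 9.80 (2.84-fold, 1.51 ± 0.16, adjusted p = 1.65e-07). Chd7, a chromatin remodeller, read 7.61 to 8.41 against 9.22 to 9.59 (1.19 ± 0.17, adjusted p = 1.19e-05). Arid1b, a subunit of the SWI/SNF remodeller, read 6.30 to 6.80 against 7.57 to 7.84 (1.10 ± 0.14, adjusted p = 2.83e-06). In all 4 the arrays of the groups were apart. Smaller rises were found for Ep400 (0.80), Chd9 (0.71) and Chd1 (0.68).

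Mouse counterparts of the human genes whose glutamine tracts expand in neurodegenerative disease form a list of 8 measured genes, of which 4 rose, with a median of 0.52. Tbp, the TATA-binding protein of the basal transcription machinery, read 9.01, 9.64, 8.82, 8.94 and 8.76 with mock and 10.34 to 10.77 with anti-miR-22 (2.97-fold, 1.57 ± 0.18, adjusted p = 4.5e-07). Atxn2, an RNA-binding protein, read 12.48 to 12.77 against 13.31 to 13.87 (2.11-fold, 1.08 ± 0.20, adjusted p = 0.00038). Htt, the huntingtin gene, read 8.24 to 8.74 against 8.999 to 9.96 (0.84 ± 0.18, adjusted p = 0.002). Atxn3, a deubiquitinase, read 8.48 to 9.27 against 9.16 to 9.78, with sham mock 3 inside the anti-miR-22 range (0.72 ± 0.16, adjusted p = 0.0033). Atxn1 was the lowest member, at 9.77 to 10.61 against 9.98 to 10.30 (-0.24, adjusted p = 0.58). All 4 were called without sham mock 1.

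RNA-binding proteins changed singly. Of 8 Pumilio, FET and related genes, 2 rose, Pum2 and Ewsr1, a FET protein gene that read 9.96 to 10.60 with mock and 11.67 to 11.97 with anti-miR-22 (3.13-fold, 1.65 ± 0.15, adjusted p = 1.11e-08). Tardbp, the gene of TDP-43, was called lower (-0.49 ± 0.15, adjusted p = 0.041) but not without sham mock 1 (adjusted p = 0.079) or without any of 7 other sham arrays. Pum3 differed by -0.10 (adjusted p = 0.83). Of 26 splicing factors and hnRNP genes, 2 rose, and the median was -0.00014. They were Leng8 and Hnrnpd, which encodes the decay factor AUF1 and read 8.78 to 9.30 against 10.04 to 11.13 (1.41 ± 0.19, adjusted p = 4.64e-06).

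**Figure D4:**
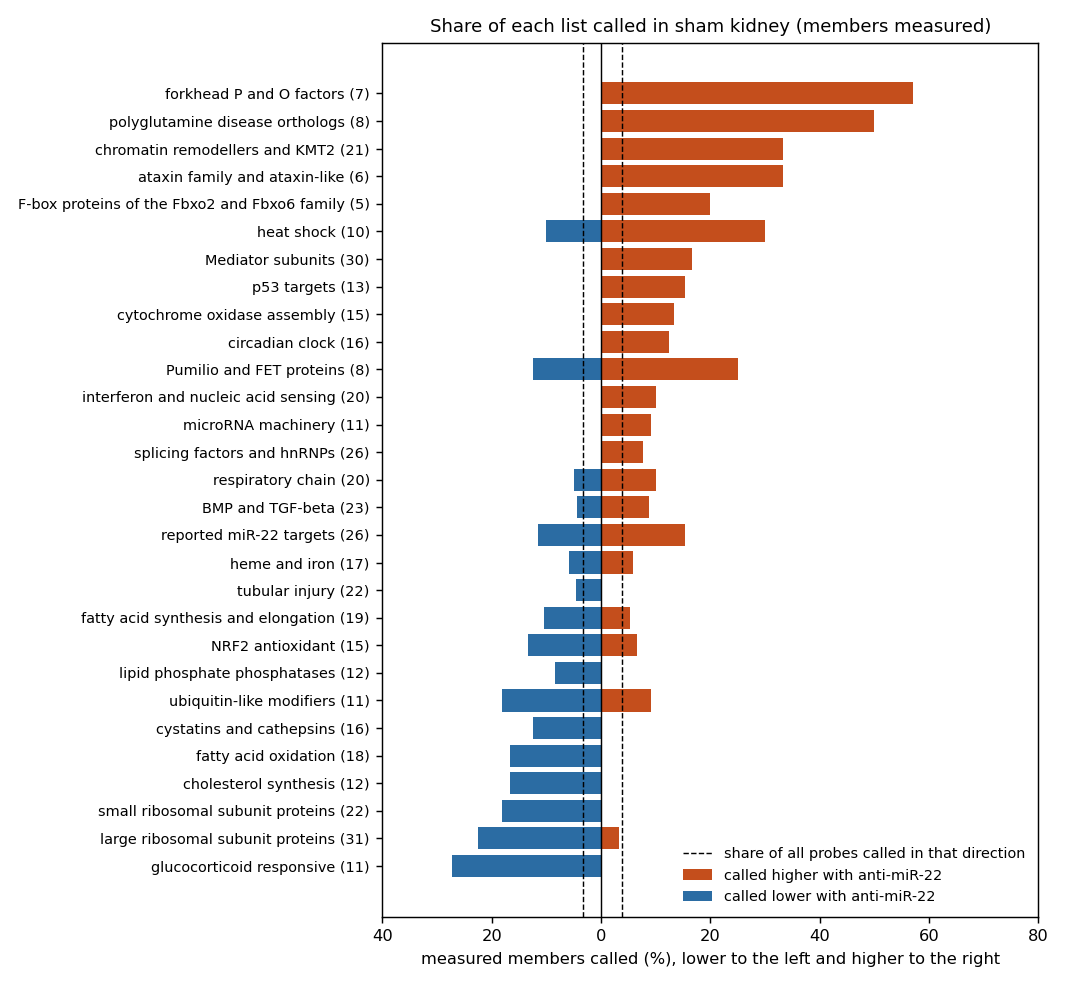
Percent of measured members called higher (right) or lower (left) with anti-miR-22 in sham kidney, for each response list with a called member, and dashed lines at the share of all probes called (3.85% higher, 3.31% lower). Numbers in brackets are members measured, and the forkhead list has the largest share called higher while the glucocorticoid list has the largest share called lower. The lists were written with earlier results of these data known, so the dashed lines give no test.

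Ribosomal protein genes were lower where they were called, with 1 exception. Of 22 measured small subunit genes, 4 fell, and of 31 large subunit genes 7 fell (6 without sham mock 1) and 1 rose. The list medians were -0.18 and -0.21. Besides Rps25, Rps19 read 11.26 to 11.72 with mock and 10.31 to 10.80 with anti-miR-22 (-0.91 ± 0.17, adjusted p = 0.00056). Rpl9 read 13.68 to 14.03 against 12.24 to 12.58 (2.53-fold lower, -1.34 ± 0.14, adjusted p = 8.12e-08). Rpl4 read 14.19 to 14.61 against 13.09 to 13.29 (2.46-fold lower, -1.30 ± 0.14, adjusted p = 2.96e-07). The exception was Rplp1, a protein of the ribosomal stalk, at 15.55 to 15.94 against 16.13 to 16.34 (0.56 ± 0.13, adjusted p = 0.0047). Members that were not called lay between -0.51 and 0.23. Many ribosomal protein genes have processed pseudogenes of nearly the same sequence, so probe signal for them is uncertain.

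Lysosomal and secretory genes differed in single members. Of 16 cystatins and cathepsins, 2 fell, Cst3 and Ctsc, a lysosomal peptidase gene that activates serine proteases, at 10.91 to 11.65 with mock and 10.01 to 10.63 with anti-miR-22 (-0.77 ± 0.16, adjusted p = 0.0019). The median of that list was 0.03. Of 11 ubiquitin-like modifiers 1 rose and 2 fell. Ubl3 rose from 11.35 to 11.99 with mock to 13.15 to 13.61 with anti-miR-22 (3.23-fold, 1.69 ± 0.20, adjusted p = 1.17e-06). Ubl5, which acts in pre-mRNA splicing, fell from 13.50 to 13.66 to 11.49 to 11.91 (3.58-fold, -1.84 ± 0.19, adjusted p = 1.02e-07).

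Lipid metabolism genes that were called were mostly lower. Of 12 cholesterol synthesis genes, 2 fell. Msmo1, a sterol demethylating oxidase, read 8.32, 8.02, 7.90, 8.17 and 7.63 with mock and 6.73, 6.55, 6.20, 6.44 and 6.78 with anti-miR-22 (2.76-fold lower, -1.47 ± 0.21, adjusted p = 1.23e-05). The other was Hmgcs1 (-0.59 ± 0.16, adjusted p = 0.015), an early enzyme of the pathway. The remaining members lay between -0.54 and 0.95. Of 19 fatty acid synthesis and elongation genes, Elovl1 and Fasn fell and the desaturase gene Fads1 rose (0.76 ± 0.19, adjusted p = 0.0088). Fasn, the fatty acid synthase gene, read 9.94, 9.02, 8.94, 9.92 and 9.63 against 7.70, 8.48, 8.92, 8.56 and 8.79, with sham mock 3 and anti-miR-22 array 3 nearest to each other (-0.999 ± 0.20, adjusted p = 0.0012).

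Of 18 fatty acid oxidation genes, 3 fell, 2 of them without sham mock 1. Ppara, the nuclear receptor that drives fatty acid oxidation genes, read 11.61 to 12.25 with mock and 10.55 to 11.23 with anti-miR-22 (2.11-fold lower, -1.08 ± 0.20, adjusted p = 0.00055). Hadhb, a subunit of the mitochondrial trifunctional protein, read 13.32 to 13.79 against 12.57 to 12.68 (-0.95 ± 0.15, adjusted p = 7.18e-05). Hadha, the other subunit of that protein, differed by -0.0027 (adjusted p = 0.996). The other called member, Pdk4, a kinase that restrains pyruvate oxidation (-1.09 ± 0.32, adjusted p = 0.03), was not called without sham mock 1 (-0.99, adjusted p = 0.084), sham mock 4 (0.11) or 5 (0.056), or anti-miR-22 arrays 1 (0.13), 2 (0.074) or 5 (0.090). Cyp4a14 spread from 8.85 to 16.73 with mock and from 9.47 to 14.17 with anti-miR-22 and was not called (-0.87 ± 1.14, adjusted p = 0.79). The list mean ran from 12.86 to 13.53 on mock and 12.70 to 13.35 on anti-miR-22 arrays, and these ranges overlapped. In the respiratory chain, Ndufa4 rose from 15.34 to 15.83 with mock to 16.37 to 16.82 with anti-miR-22 (1.02 ± 0.17, adjusted p = 0.00018) and Uqcrc2 fell (-0.59 ± 0.15, adjusted p = 0.011). The other called member, Cyc1, a subunit of the cytochrome bc1 complex, rose but was not called without sham mock 1 or 5 or anti-miR-22 array 1, 2 or 4. The median over the 20 genes of that list was 0.03.

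Reported miR-22 targets went both ways. Of 26 measured, 4 rose and 3 fell, the median was 0.19, and 5 rose and 3 fell without sham mock 1. At an unadjusted limma p below 0.05, 10 were higher and 4 lower, and 17 of the 26 differences lay above 0. The groups did not overlap for 8 of the 26, against 8.27% of all probes. Besides Ncoa1, Trp53inp1, a p53-induced regulator of autophagy, read 9.98 to 10.54 with mock and 11.04 to 11.52 with anti-miR-22 (0.95 ± 0.18, adjusted p = 0.00066). Hdac4, a class II histone deacetylase, read 5.38 to 5.94 against 6.32 to 6.68 (0.83 ± 0.16, adjusted p = 0.0006). The other that rose, the receptor gene Erbb3 (0.63, adjusted p = 0.041), was not called without sham mock 1 (0.50, adjusted p = 0.15) or without any of 5 other arrays, sham mock 3 (0.105) and 5 (0.058) and anti-miR-22 arrays 1 (0.092), 3 (0.11) and 5 (0.089).

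Those that fell were Ppara, Cdk6, a cell cycle kinase gene (10.16 to 11.05 against 9.54 to 9.82, -0.93 ± 0.17, adjusted p = 0.00053), and Arpc5, a subunit of the actin-nucleating Arp2/3 complex (10.63 to 11.15 against 9.98 to 10.24, -0.75 ± 0.16, adjusted p = 0.0019). Other reported targets did not pass: Sirt1, a deacetylase, differed by -0.08 (adjusted p = 0.87), Max, the partner of MYC, by 0.21 (adjusted p = 0.53), and Ppargc1a, a coactivator of mitochondrial genes, by 0.51 (adjusted p = 0.11). Ppargc1a did not overlap between the groups, at 14.38 to 14.60 against 14.74 to 15.26. On each array, the mean of the 26 targets lay at 9.77 to 9.88 with mock and 9.91 to 10.06 with anti-miR-22. Of 11 microRNA machinery genes, Tnrc6c, a partner of Argonaute in silencing, rose (8.46 to 9.14 against 9.33 to 9.73, 0.79 ± 0.18, adjusted p = 0.0044), and Dicer1 (-0.01) and Ago2 (-0.17) were not called. Mature miR-22 itself was not measured here.

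With all arrays, glucocorticoid responsive genes were lower where they were called. Of 11 measured, 3 fell and the median was -0.59 (-0.48 without sham mock 1). The list is mixed, since its member Cdkn1a was called higher without sham mock 1 (limma adjusted p = 0.028) and without sham mock 3 (0.033). Tsc22d3, which encodes the glucocorticoid-induced protein GILZ, read 9.47, 9.81, 9.49, 9.26 and 9.67 with mock and 8.10, 8.77, 7.59, 8.49 and 8.60 with anti-miR-22 (2.34-fold lower, -1.23 ± 0.23, adjusted p = 0.00064). Fkbp5, a chaperone of the glucocorticoid receptor, read 11.58, 12.37, 12.57, 11.90 and 11.61 against 11.41, 10.72, 10.33, 11.23 and 10.66 (2.19-fold lower, -1.13 ± 0.22, adjusted p = 0.00082). Errfi1, a feedback inhibitor of the EGF receptor, read 15.78 to 16.18 against 14.94 to 15.57 (-0.70 ± 0.14, adjusted p = 0.0014). The groups were apart in all 3. Other members of the list were not called, among them Zbtb16 (-0.59, adjusted p = 0.33), Per1 (-0.54, adjusted p = 0.41) and Sgk1 (-0.34, adjusted p = 0.51). Of 16 circadian clock genes, 2 rose, Npas2 (5.62 to 6.31 against 6.34 to 7.48, 1.15 ± 0.24, adjusted p = 0.0018) and Clock (0.72 ± 0.19, adjusted p = 0.014).

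Other short lists held 1 to 3 calls each. Of 20 interferon and nucleic acid sensing genes 2 rose, Eif2ak2, the kinase PKR (0.59 ± 0.16, adjusted p = 0.014; not called without sham mock 5), and Ifit3 (1.02 ± 0.28, adjusted p = 0.021), which was not called without sham mock 2, 3 or 5 or anti-miR-22 array 2 or 5. Of 17 heme and iron genes, the transferrin receptor gene Tfrc rose (0.78 ± 0.20, adjusted p = 0.011) and the metal transporter gene Slc39a14 fell (-0.92 ± 0.21, adjusted p = 0.0052). Of 23 BMP and TGF-beta genes, the signal transducers Smad1 (0.65 ± 0.15, adjusted p = 0.0037) and Smad5 (0.61 ± 0.15, adjusted p = 0.009) rose and the receptor gene Bmpr2 fell (-0.63 ± 0.15, adjusted p = 0.005). Besides Cox20, 1 of 15 cytochrome oxidase assembly genes rose, Surf1 (0.55), which was not called without sham mock 1 (adjusted p = 0.053), sham mock 3, or anti-miR-22 array 1 or 5. Plpp2 was the 1 called of 12 lipid phosphate phosphatases and Fbxo6 the 1 called of 5 F-box relatives, and Atxn7l1 and Atxn10 (0.51 ± 0.14, adjusted p = 0.014; not called without anti-miR-22 array 4) were the 2 called of 6 ataxin-like genes.

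Calls were uneven over the stress response lists. Of heat shock genes 30% were called higher and 10% lower, and of NRF2 targets 6.7% and 13.3%. Of p53 targets 15.4% were called higher and 0% lower. Over all named genes the shares were 4.02% and 3.41%, and with lists written after earlier results they give no test. Mdm2, the ubiquitin ligase that limits p53, read 9.06 to 9.51 with mock and 10.54 to 11.24 with anti-miR-22 (3.08-fold, 1.62 ± 0.22, adjusted p = 8.42e-06). It was 1 of 2 called among 13 p53 targets, the other being Trp53inp1, and 4 were called without sham mock 1, where Cdkn1a was among them (adjusted p = 0.028, against 0.14 with that array). Txn1, thioredoxin, read 16.64 to 16.84 against 15.17 to 15.49 (2.56-fold lower, -1.36 ± 0.12, adjusted p = 1.11e-08), while Gclm, of glutathione synthesis, rose (0.56 ± 0.14, adjusted p = 0.01) and Gsr, glutathione reductase, fell (-0.53 ± 0.14, adjusted p = 0.014; 0.059 without sham mock 1) among the 15 NRF2 target genes. Of 10 heat shock genes 3 rose and 1 fell. They included the co-chaperone gene Bag3 (7.20 to 7.99 against 7.75 to 9.12, 1.11 ± 0.25, adjusted p = 0.0036), the small heat shock protein gene Cryab (0.92 ± 0.23, adjusted p = 0.0096) and, lower, the mitochondrial chaperonin gene Hspd1 (-0.61 ± 0.14, adjusted p = 0.0051). The remaining one, Hspb8, is too dim with mock for a size to be read (mean 3.52) and was not called without sham mock 1 (adjusted p = 0.091), sham mock 3 or anti-miR-22 arrays 1, 3 or 5. Limma called 0 of 26 inflammatory mediators (1 at an unadjusted p below 0.05), 0 of 17 immediate early genes (4), 0 of 13 genes of the unfolded protein and integrated stress responses (1) and 0 of 12 genes of oligonucleotide uptake and RNase H (3). By comparison, 18.6% of all named genes had an unadjusted p below 0.05.

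Few tubular injury genes were called. Of 22 measured, 1 was called with all arrays, the calcium-binding protein gene Anxa2 (-0.61, adjusted p = 0.033), which was not called without sham mock 1 (adjusted p = 0.12), sham mock 2 (0.086) or anti-miR-22 arrays 1 (0.083), 3 (0.12) or 4 (0.056). The list median moved from -0.08 to 0.13 without sham mock 1. Of 14 cell cycle genes, limma called 0, and 3 had an unadjusted p below 0.05. Outside this list, other genes of dividing cells were called lower with all arrays but not without sham mock 3. Among them were Ckap2 (-1.39), Kif20a (-1.39), Nusap1 (-1.25) and Kif4 (-1.06).

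Calls among cell type markers were few and uneven. The largest shares by list were 16.7% called higher (thick limb and distal tubule) and 18.2% called lower (endothelium), against 4.02% and 3.41% of named genes. In bulk tissue, fewer cells of a type and less RNA per cell cannot be told apart. Of 20 proximal tubule genes limma called 0 with all arrays (7 at an unadjusted p below 0.05, 3 higher and 4 lower) and 1, lower, without sham mock 1. The groups did not overlap for 6 of these 20 and for 5 of 11 endothelial genes, against 8.27% of all probes. After injury, 3 of the 20 proximal tubule genes were called higher and 11 lower, where 9.48% and 10.2% of all probes were. In the distal nephron, Slc12a3, the thiazide-sensitive sodium chloride cotransporter, read 15.92 to 16.30 with mock and 15.004 to 15.35 with anti-miR-22 (1.84-fold lower, -0.88 ± 0.17, adjusted p = 0.0006). Wnk1, a kinase that regulates that transporter, read 14.46 to 14.80 against 15.34 to 15.77 (1.93-fold higher, 0.95 ± 0.14, adjusted p = 1.96e-05). Those were 2 of 3 called among 12 thick limb and distal tubule genes, with Egf the third (0.58 ± 0.15, adjusted p = 0.014), and the other 9 lay between -0.30 and 0.38. Of 13 collecting duct genes 2 rose, the intercalated cell factor Foxi1 (0.75 ± 0.16, adjusted p = 0.0022) and the sodium channel subunit Scnn1g (0.63), which was not called without sham mock 1 (adjusted p = 0.083), sham mock 4 or 5, or anti-miR-22 array 1, 2 or 5. Of 9 T and NK cell genes 1 was called higher, Ncr1 (adjusted p = 0.033), which is too dim with mock for a size to be read (mean 3.74) and was not called without sham mock 2, 3 or 5 or anti-miR-22 array 3 or 5. Of 11 endothelial genes 2 fell, Kdr, the main VEGF receptor (11.79 to 12.34 against 11.21 to 11.70, -0.66 ± 0.17, adjusted p = 0.01), and Cdh5, which was not called without sham mock 1 (adjusted p = 0.084), sham mock 3 (0.060) or anti-miR-22 arrays 3 (0.060) or 4 (0.062). None of the markers of podocytes (6 measured), stroma (8), macrophages (12), neutrophils (8), B cells (4), red cells (3), urothelium (7), skeletal muscle (7), fat (5), adrenal gland (7) or liver (7) was called by limma, and 4 of them had an unadjusted p below 0.05. Without sham mock 1, 1 liver gene was called lower. The part of cell composition in the results above was not tested.

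The same contrast in injured kidney had 7 arrays against 7 and more calls, 4360 (19.6%), 2106 higher (9.48%) and 2254 lower (10.2%), and it shares no array with the sham contrast. Of the probes called higher in sham kidney, 630 were also called higher in injured kidney, which is 73.8% of the sham list and 29.9% of the injured one. Of those called lower, 588 were called lower in both, 79.9% and 26.1%. In opposite directions, 3 probes were called. With each condition fitted on its own, 1539 probes were called in sham kidney, 4052 in injured kidney and 1156 in the same direction in both. Of the 30 genes with the largest sham differences, 29 were called in the same direction after injury, where Foxp1 rose by 4.11, Ppdpf by 3.00, Med15 by 2.91 and Leng8 by 3.10 on the log2 scale and Cst3 fell by 2.47. Across the 22205 probes the differences of the contrasts correlated at 0.603 (Pearson) and 0.426 (Spearman), as a description over probes, which are not independent.

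The test of the difference between the effects called 85 probes (0.383%), and 25 of the 1590 sham calls were among them, 22 with a gene name. This count depended on single arrays. It was 30 without sham anti-miR-22 array 1, 34 without sham mock 3, 40 and 45 without anti-miR-22 arrays 4 and 2, and 51 to 56 without sham mock 2, 4 or 5 or anti-miR-22 array 5. Aph1c rose by 1.93 in sham kidney and by 0.73 after injury (difference -1.20 ± 0.24, adjusted p = 0.023), and its call was lost without sham mock 3 or without anti-miR-22 array 1, with a highest adjusted p of 0.051. In injured kidney it read 6.07, 6.47 and 7.05 (lowest, median and highest of 7) with mock and 7.04, 7.22 and 7.65 with anti-miR-22. Ppic, a cyclophilin gene, rose by 1.35 in sham kidney and by 2.53 after injury (difference 1.18 ± 0.25, adjusted p = 0.034), and Tbc1d15, a GTPase-activating protein gene, fell by 0.64 in sham kidney and rose by 0.47 after injury (difference 1.11 ± 0.22, adjusted p = 0.023). The call for Ppic held in 14 of 24 fits that left out 1 array, and that for Tbc1d15 in 22. The fall of Tbc1d15 in sham kidney was not called without sham mock 5 or anti-miR-22 array 1.

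Hadhb fell by 0.95 in sham kidney and by 1.91 after injury (adjusted p of the difference 0.027, called in 18 of 24 such fits). Chst3, a chondroitin sulfotransferase gene, rose by 0.87 in sham kidney and was not called after injury (-0.21), and the difference between these effects was called in 6 of the 24 fits. Vmn1r20, a vomeronasal receptor gene, rose in sham kidney from a mean of 8.31 with mock to 9.27 with anti-miR-22. Its means after injury, 4.07 and 3.77, lie near or below 4.028, the level under which no fold is given, so its effect in injured kidney could not be read, and the called difference between conditions (called in 16 of the 24 fits) rests on those dim values. Kdr fell in sham kidney (-0.66) and after injury (-1.62), and that difference was called in 6 of the 24 fits. Of the 22 genes, Ano10 alone was called in all 24 (-0.54 in sham kidney, -1.56 after injury, adjusted p of the difference 0.015), and it was picked after its values were seen. Zbtb16, a glucocorticoid-induced repressor gene not called in sham kidney (-0.59), rose after injury (2.23 ± 0.26, adjusted p = 1.41e-07), and the difference was called (2.82 ± 0.41, adjusted p = 0.0013). For Tsc22d3 (-1.23 against -0.30) and Fkbp5 (-1.13 against -0.04) the difference was not called (adjusted p = 0.16 and 0.076).

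**Figure D5:**
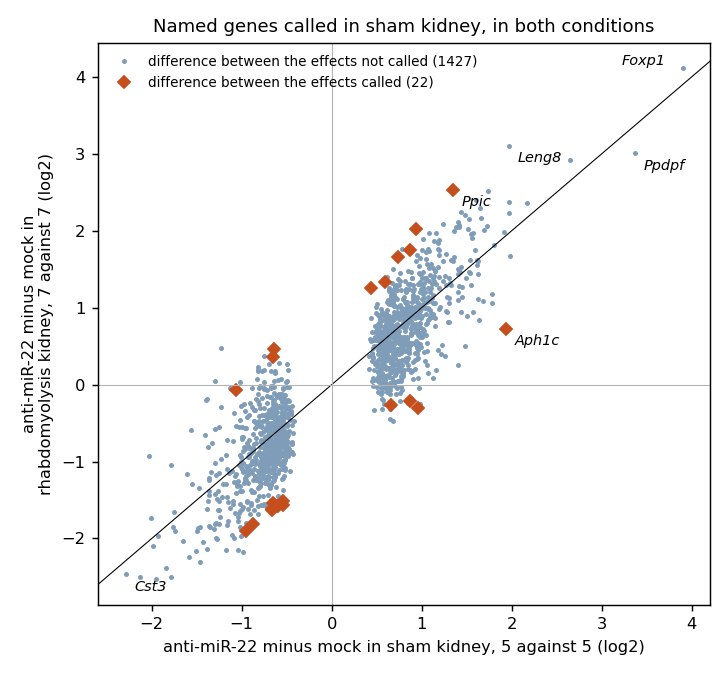
Log2 difference between anti-miR-22 and mock in sham kidney (x axis, 5 against 5 arrays) and in rhabdomyolysis kidney (y axis, 7 against 7) for the 1449 named genes called in sham kidney, with a diagonal of equal values. Diamonds are the 22 genes whose difference between the effects was called, and most other points share their sign in both conditions.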

How the data were processed

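RNA from halved mouse kidneys was hybridised to Mouse Clariom S arrays, per the labels' protocols. The authors deposited 1 log2 value per probe set and array, and the submitters' processing notes name RMA and Partek 6.4. The table was used as deposited. Of 22206 lines, 1 with missing values was left out, 19572 of the remaining 22205 have 1 gene symbol and 2633 have none. Where a gene had several probe sets (55 genes), the one with the highest mean over all arrays represents it. Means of 4 groups were fitted over all 24 arrays with limma 3.58.1 in R 4.3.3 (lmFit, eBayes), and p-values were adjusted by Benjamini-Hochberg over 22205 probe sets, at a threshold of 0.05. SE is limma's moderated standard error. No fold is given where the lower group mean is below 4.028, the highest lower quartile of any array. Precision depends on the number of arrays and on how much they vary for a probe, since arrays have no sequencing depth. Scan dates and batches were not used here. The fit was tested on simulated data.

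Genes named are the 15 called genes with the largest difference in each direction, up to 4 called members per direction of 50 gene lists (16 of them cell type lists), the 10 genes farthest above and below on sham mock 1, the 5 sham-called genes most different between conditions, Havcr1 and Lcn2. Genes outside this rule, such as those of sham mock 3, members that were not called, Ano10 and Zbtb16, were chosen after their values were seen. The members and lists were chosen with earlier results of these data known. The labels do not state that replicate numbers pair the arrays, and the main fit did not pair them. Alternatives were each sham array left out, the replicate block, only sham arrays, trend and robust moderation, array weights, other scalings, a filter on dim probe sets and a stricter threshold. A planned comparison by glutamine runs in the encoded proteins was not run, because protein sequences were not used here.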

Additional observations from a re-analysis of the deposited data

Results flagged for a closer look

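Within each group of 5 sham arrays, the highest and the lowest value of 143 genes named in the text was compared with its nearest neighbour. Some of these genes were named because they deviated on sham mock 1 or sham mock 3, so the share found cannot be judged against chance. Of 286 groups, 20 (7.0%) held a value set apart from the others by most of the group's range, and chance gives about 1 in 20. On sham mock 1 these were Havcr1 at 14.59 (next 7.74), Lcn2 at 13.70 (next 8.91), Bcl6 at 8.19 (next 10.04) and Dynlt1b at 9.34 (next 9.92). On sham mock 2 they were Foxp1 at 6.82, Chd7 at 7.61 and Tbp at 9.64, on sham mock 3 Rrm2 at 11.73 and Ccn2 at 10.10, and on sham mock 5 Med12 at 8.04. Among anti-miR-22 arrays, array 2 was apart for Chst3 at 6.59 and Cst3 at 12.70. Array 3 was apart for Cyp4a14 at 14.17 (next 10.26), Ube2c at 3.69 (next 5.98), Rpl4 at 13.29, Rpl9 at 12.24 and Tardbp at 10.52. Array 4 was apart for Ctsc at 10.01 and Dicer1 at 7.35, and array 5 for Hmgcs1 at 15.43.

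Limma's test of the difference in anti-miR-22 effect between injured and sham kidney called 9 genes named in the text, with the injured minus the sham effect on the log2 scale given here. The difference was positive for Zbtb16 (2.82), Ppic (1.18) and Tbc1d15 (1.11), and Tbc1d15 fell in sham kidney but rose after injury. It was negative for Vmn1r20 (-1.26), Aph1c (-1.20), Chst3 (-1.08), Ano10 (-1.02), Hadhb (-0.96) and Kdr (-0.96). The values of Vmn1r20 after injury (means of 4.07 and 3.77) are near or below the dim level of 4.028, so its difference does not show that the effects differ. Kdr and Chst3 were each called in 6 of 24 fits that left out 1 array.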

How the results depend on the processing

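Leaving out 1 sham array at a time gave 1351 to 1414 calls in sham kidney (714 to 774 higher, 609 to 667 lower), and 1 injured array at a time gave 4002 to 4361 calls in injured kidney. With only the sham arrays in the fit, 824 probes were called higher and 715 lower in sham kidney. Cdca3, Pdk4, Erbb3, Anxa2, Ncr1, Tardbp and Atxn10 were not called in that fit. The replicate number as a block gave 839 higher and 723 lower calls in sham kidney and 89 calls for the difference between conditions. The labels do not say whether the numbers pair the arrays. Deviations of same-numbered arrays correlated at -0.11 to 0.027, and 0 arrays of either group correlated best with their own number. These values do not settle whether the arrays were paired. At an adjusted p below 0.01, 929 probes were called, 527 higher and 402 lower, because the threshold is stricter. Without sham mock 1 and sham mock 3 together, a choice made after seeing the data, 1100 were called, 658 higher and 442 lower, with fewer arrays. The count for the difference between sham and injured kidney moved most: 30 to 105 with 1 sham array left out, 34 without both sham mock 1 and sham mock 3, 173 with trend and robust moderation, 141 with array weights, 136 after a second quantile normalization, 140 with dim probes left out and 11 at an adjusted p below 0.01. Beyond the number of arrays or the threshold, the cause was not tested. The Lcn2 difference of -0.80 ran from -1.22 to 0.27 with 1 array left out, positive only without sham mock 1, and was 0.21 without both. Foxp4, at 0.03, ran from -0.051 to 0.11 with 1 array left out. It was -0.051 without sham mock 2, -0.049 without sham mock 3, -0.016 without anti-miR-22 array 2, -0.0095 without anti-miR-22 array 4, -0.0096 with array weights and -0.017 without sham mock 1 and 3. Of 108 called genes named by the rule, 78 were called in all 18 alternatives and 30 were lost in at least 1. The number of arrays limits which differences can be called: the smallest called was 0.382.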

Other observations

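Gene families were counted after the values had been seen, so they are a description with no test. Beside every family below stand 4.02% of all named genes called higher and 3.41% called lower, 7.43% in either direction. In either direction, 21.4% of Mrps, 14.6% of Mrpl, 22.9% of Eif and 16% of Polr genes were called. Of 28 measured Mrps genes, which encode proteins of the mitochondrial small ribosomal subunit, 6 were called lower and none higher by limma, and 4 were called lower without sham mock 1. The largest differences were those of Mrps10 (-1.49) and Mrps24 (-1.26). Of 48 Mrpl genes, for the large subunit, 3 were called higher and 4 lower. Of 48 genes whose symbols begin with Eif, mostly translation initiation factors, 3 were called higher and 8 lower. Those called higher include Eif2ak2, the kinase PKR. Of 25 RNA polymerase subunit genes (Polr) 4 were called lower.

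Nuclear transport genes went both ways. Among 6 importin alpha genes, Kpna2 (-1.37), Kpna4 (-0.93) and Kpna3 (-0.67) were called lower and Kpna6 (1.05) higher, and of 18 nucleoporin genes 4 were called higher and 1 lower. Of 7 nuclear receptor coactivator genes 4 were called higher, Ncoa4 (0.69) and Ncoa5 (0.89) in addition to Ncoa1 and Ncoa6. Of 5 Dynlt genes, dynein light chains, 4 were called higher, but Dynlt1a, Dynlt1b, Dynlt1c and Dynlt1f are near-identical copies and their probe signal may be shared. Among chemosensory receptors, 5 of 1091 olfactory receptor genes (0.458%) and 5 of 321 vomeronasal receptor genes (1.56%) were called, against 7.43% of all named genes. Dim probes, with a group mean below 4.028, were called in 0.703% and the others in 9.7%. Apart from Vmn1r20, the lower group mean of the called receptors was 2.90 to 4.23, at or near that level. Without sham mock 1, the vomeronasal calls went from 4 higher and 1 lower to 1 higher and 1 lower.

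Bcl6 spread widely within the anti-miR-22 group. It read 10.15, 10.06, 9.11, 6.46 and 6.56 on the anti-miR-22 arrays, and 8.19 on sham mock 1 against 10.04 to 10.28 on the other mock arrays. It was not called (-1.32 ± 0.61, limma adjusted p = 0.23).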
